A study of Mus musculus with 5 samples.

Results

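Lymphoid progenitors in culture (CLP cells) were compared on 1 mouse 2-colour microarray, with cells carrying the mutant IL7R named INS in one channel and cells carrying wild-type IL7R (WT) in the other. This array is 1 of the 5 arrays of the series and was identified by its title, which names the cultured CLP cells of both genotypes. Balb/c CLP cells were sorted, transduced by retrovirus with either form of IL7R and expanded for 5 to 7 days in medium with 20% serum on a layer of OP9 stroma; SCF, IL-7 and Flt3 ligand were added. GFP-positive cells were then sorted and pooled, so each channel holds 1 pool and the sources used here do not give the number of cultures behind it. WT and INS cells shared the strain, the retroviral transfer, the stroma and the cytokines, and differed by the form of IL7R they received. The dyes ran with the genotype, Cy5 for WT and Cy3 for INS, and there was no dye swap. A dye effect and an effect of INS therefore cannot be told apart.

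The other 4 arrays, used below for comparison, set INS against WT in the same dye order. One held IgM+B220+ B cells that grew from transplanted CLP cells in recipients irradiated with 4 Gy, taken at about day 60, with the INS cells described as leukemic. The KSL culture held Balb/c KSL cells, a fraction that contains stem cells and early progenitors, transduced in the same way and cultured in a cytokine mix for 4 to 5 days. ICN T-ALL held T-cell leukemias of KSL origin that carried intracellular Notch1 besides IL7R, from lethally irradiated recipients at day 30 to 40. The last held the CMP fraction, a myeloid progenitor fraction, of KSL-derived cells at about day 40, also from lethally irradiated recipients. Each of the 5 comparisons has 1 array and no replicate.

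The interleukin-7 receptor is built from the IL7R chain and the common gamma chain. When interleukin-7 binds, the kinases JAK1 and JAK3 activate the transcription factor STAT5, and the signal supports survival and growth of early lymphoid cells. CLP cells give rise to B cells, T cells and NK cells, and culture on OP9 stroma with interleukin-7 is a common way to grow B-lineage cells from them. The files used here give the array's features by probe ID without gene names, and 0 of the IDs were found in the reference gene table. The level of Il7r itself, the markers of CLP, B, T, myeloid and stromal cells, and the genes downstream of STAT5 could therefore not be read. The CLP label was not checked against markers for the same reason, and OP9 cells carried over into either pool were not assessed.

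The CLP array held 23473 probes, of which 23467 were left after flagged spots were dropped. Of those left, 18811 (80.2%) gave a signal above the blank spots in INS and 19526 (83.2%) in WT. The limit of detection, the mean of the blank spots plus 2 SD, was an intensity of 47.4 in INS and 18.5 in WT. Among spots named "No probe", 16.2% passed it in INS and 39.4% in WT, so a probe just above the limit is not shown to be expressed. Both genotypes were detected at 18192 probes, INS alone at 619 and WT alone at 1334. The comparison took the 20145 probes above the limit in one channel or both, and none of them was saturated. Their median intensity was 102 in INS and 59 in WT before correction. In a pool of cells, more cells of a type and more RNA per cell cannot be told apart.

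In the INS CLP culture far more probes were higher than lower. A signal at least 2-fold higher in INS was measured for 1015 probes (5.04% of those compared) and at least 2-fold lower signal for 172 (0.854%). Higher probes thus made up 85.5% of the 2-fold probes (exact Clopper-Pearson 95% interval 83.4% to 87.5%, which covers counting only and treats probes as independent). The share of higher probes differed with the fold taken as the line. At 1.5-fold 2077 probes were higher and 746 lower, a share of 73.6%, and at 4-fold 199 were higher and 12 lower, a share of 94.3%. At least 8-fold differences were found for 26 higher and 2 lower probes, a share of 92.9%, and at least 16-fold for 4 higher and 0 lower. Loess sets the centre of the log2 ratios near 0, so a shift of the whole array between genotypes cannot be read from these values. With the local background subtracted the share of higher probes at 2-fold was 56.6% (2941 higher and 2256 lower), and with the mean of the blank spots subtracted it was 65.2%.

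**Figure D1:**
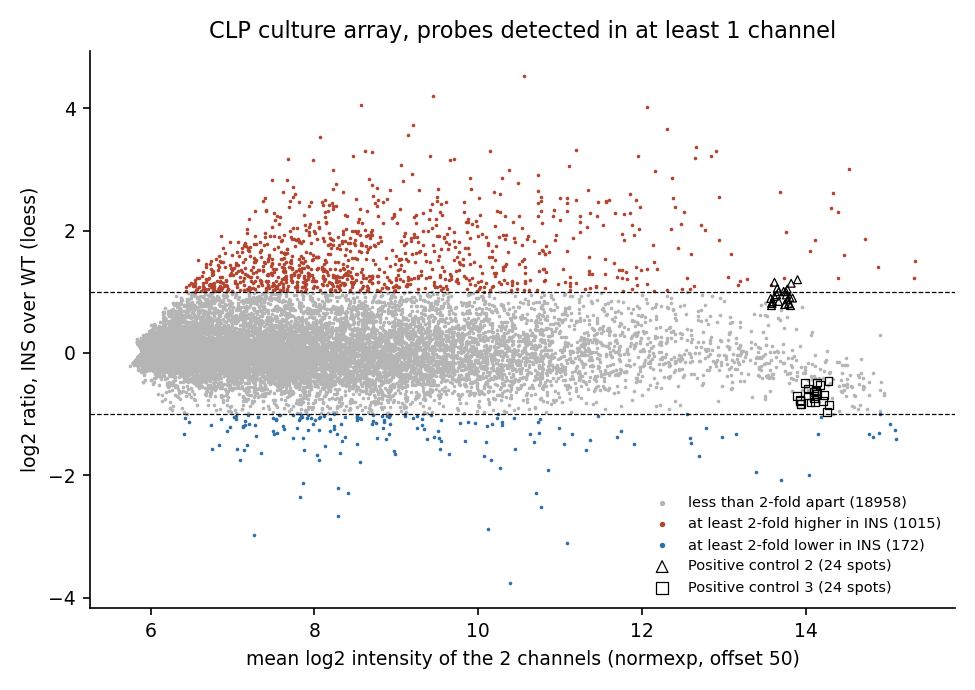
Each point is a probe of the CLP culture array, with the mean log2 intensity of both channels on the x axis and the log2 ratio of INS over WT on the y axis; dashed lines mark 2-fold, and open symbols are the spots of the positive controls. The 1015 higher probes reach further from 0 than the 172 lower ones.

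Repeated spots of the positive controls give the technical spread of a ratio among bright spots. Blank and negative control spots lie at the level where the correction pulls ratios toward 0, and give no such spread. The 24 spots of positive control 2 had a mean log2 ratio of 0.93 ± 0.13 (SD over spots), between 0.77 and 1.20. They read 15839 to 22652 in INS and 8488 to 11180 in WT, and 7 of the 24 passed the 2-fold line. The 24 spots of positive control 3 leaned the other way, at -0.70 ± 0.13 (SD over spots) and between -0.96 and -0.45. They read 11452 to 16422 in INS and 19712 to 28202 in WT. The 2 controls thus differed by more than the spread of their spots, in opposite directions, and the sources used here do not say what they bind. These spreads cover spotting and scanning and not the spread between cultures, which was not measured. No p-value can be given for any probe.

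The 2-fold probes came from the bright part of the array. When the compared probes were divided into 10 groups of rising intensity, the 4 dimmest groups (8062 probes) held 0 probes past the 2-fold line, and the 6 brightest (12083 probes) held all 1015 higher and 172 lower ones. The correction adds 50 to each channel, so a probe near the blank level can hardly reach 2-fold, and these zeros say nothing about dim genes. From the sixth group on, higher probes made up 5.96% to 11.6% of a group and lower probes 0.993% to 2.58%. Higher probes outnumbered lower ones in each of the 6 groups, also in the brightest, with 230 against 52. Both channels were above the detection limit for 1012 of the 1015 higher probes and for 170 of the 172 lower ones. As 39.4% of the "No probe" spots passed the WT limit, passing it does not show expression in both genotypes. The 10th percentile of the WT signal in the higher list was 36, against a limit of 18.5. For the INS signal in the lower list it was 84.1, against a limit of 47.4. In the middle of the higher list the signal was 649 in INS against 141 in WT (medians), and in the middle of the lower list 300 against 579.

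**Figure D2:**
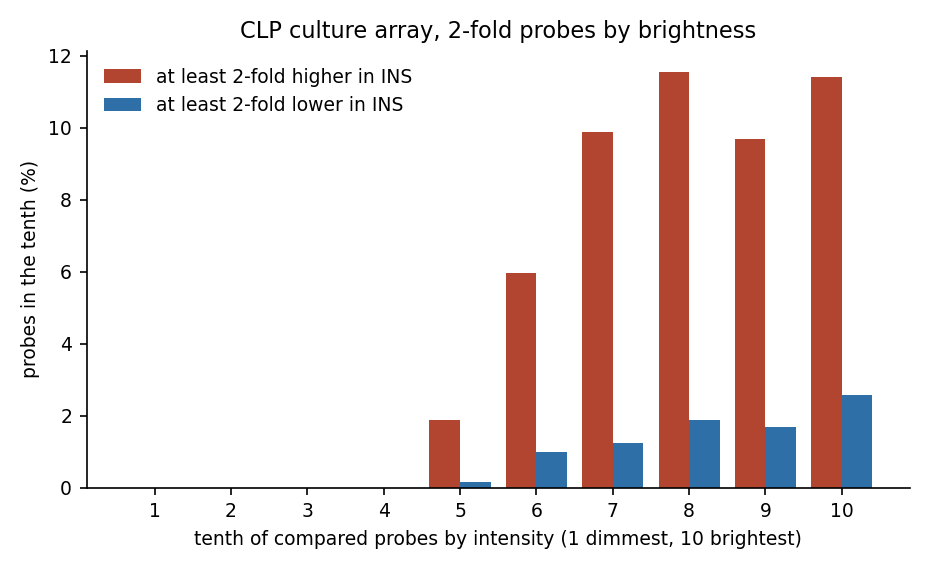
Bars give the percentage of probes at least 2-fold higher (red) or lower (blue) in INS within each of 10 groups of the compared probes of the CLP culture array, ordered by intensity from dim to bright. No bar rises in the first 4 groups, and the red bar is the taller one in each group from the fifth on.

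The lean was present across the slide. In all 24 printing blocks more probes were higher than lower, with 3.39% to 7.42% higher and 0.244% to 1.38% lower. The block medians of the log2 ratio lay between -0.03 and 0.07. The probe IDs fall into 3 series by their first digit, which were not alike. In the M2 series 7.12% of 7191 compared probes were higher in INS, in the M3 series 4.52% of 5903 and in the M4 series 3.35% of 7051. Lower probes made up 0.973%, 0.779% and 0.794%. The M2 probes were also brighter, with a median INS signal of 165 against 98 and 75. Among probes at or above the median intensity the higher shares were 11.3%, 8.85% and 8.06%. Whether brightness accounts for the order of the series was not tested.

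Single probes were ranked among 10071 that were detected in both channels, unsaturated and at or above the median intensity. The 12 highest were 9.83-fold to 23.0-fold higher in INS, with INS signals of 984 to 24247 and WT signals of 34 to 2378. They lay in 10 different printing blocks. The 12 lowest were 4.00-fold to 13.5-fold lower, with INS signals of 95 to 8209 and WT signals of 407 to 34556, and lay in 9 blocks. For 1 of the 12 lowest, 4.88-fold lower, the WT signal of 646 lay below its local background of 739. Among the 12 highest this held for 0. These probes were picked as the most extreme ones, so their ratios are a description. All 24 had a value in the authors' deposited table, with log2 sizes of 3.02 to 5.46 for the highest 12 and 2.42 to 4.08 for the lowest 12.

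**Figure D3:**
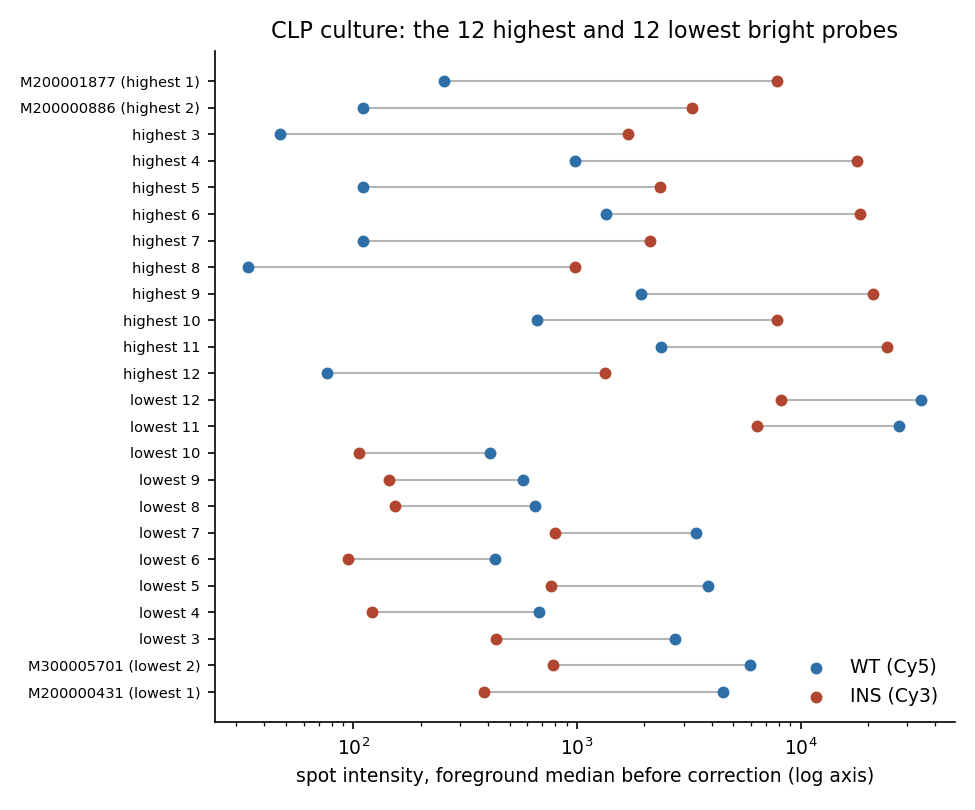
Each line joins the WT (blue) and INS (red) spot intensity of 1 probe on the CLP culture array, on a log axis, for the 12 highest and the 12 lowest ratios; 2 probe IDs each way are printed. In the upper 12 lines the INS point lies to the right of the WT point, and in the lower 12 to the left.

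M200001877 had the highest ratio, with an intensity of 7837 in INS (SD over the pixels of the spot 957) and 254 in WT (pixel SD 41.5), a 23.0-fold difference. On the other arrays it was bright in the KSL culture and the CMP: it read 29746 in INS and 50993 in WT in the KSL culture, and 24477 in INS and 20149 in WT in the CMP. In the KSL culture it was 2.68-fold lower in INS (log2 ratio -1.42), opposite to the CLP culture, while in the CMP the log2 ratio was 0.02. It was dim in B cells, at 52 in INS, which is below the detection limit there, and 96 in WT, so INS was the lower there too. It was also dim in T-ALL, at 82 in INS and 24 in WT. Each array was scanned and normalized by itself, so levels on different arrays are set side by side as an order of bright and dim and not as folds.

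M200000886 was second, at 3273 in INS (pixel SD 668) and 110 in WT (pixel SD 32.9), an 18.4-fold difference. It too was bright in the KSL culture, at 27283 in INS and 22857 in WT. In the CMP it read 1019 in INS and 199 in WT, a log2 ratio of 2.29, so it was higher in INS there as well. In B cells it was dim, at 55 in INS, just above the limit, and 35 in WT (log2 ratio -0.42), and in T-ALL it lay just above both limits, at 74 in INS and 20 in WT. In the KSL culture its log2 ratio was -0.43.

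M200000431 had the lowest ratio, at 383 in INS (pixel SD 87.7) and 4511 in WT (pixel SD 1116), 13.5-fold lower in INS. It was at or near the detection limit in WT cells of each other array, with intensities of 18 in B cells, 17 in the KSL culture, 18 in T-ALL and 15 in the CMP. In INS B cells it read 179, a log2 ratio of 1.36. Among the 5 WT samples it was bright in the CLP culture alone.

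M300005701 followed, at 779 in INS (pixel SD 100.04) and 5919 in WT (pixel SD 359.9), 8.56-fold lower in INS. In B cells the order was the reverse, with 2592 in INS and 102 in WT, a 9.54-fold difference. It read 681 in INS and 286 in WT in the KSL culture (log2 ratio 0.14) and 367 in INS and 476 in WT in the CMP (log2 ratio -0.23). It was not above the limit in T-ALL, at 70 in INS and 16 in WT.

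The pattern of the first 2 probes recurred among the 12 highest. That set includes these 2 probes, so its figures in part count their values again. WT signals were ranked within each array and given as percentiles, a measure that was chosen after these values had been seen. In WT cells of the KSL culture 10 of the 12 highest probes lay in the brightest 10% of the array, with a median percentile of 98.1. Of the 12 lowest, 0 lay there, and their median was 37.5. In WT T-ALL the same 12 highest probes had a median percentile of 35.0 and the 12 lowest 33.6. In WT B cells the medians were 57.1 and 77.7, and in the WT CMP 79.3 and 60.6. Both sets were drawn from probes at or above the median intensity of the CLP array, so they are to be read against each other. Sets of 12 are small, and these percentiles are a description of single arrays.

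Over the full lists the KSL culture again gave the higher probes their highest median, with smaller gaps. The 1014 higher probes with a value on all arrays had a median percentile of 80.5 (quartiles 69.4 and 90.8) in WT cells of the KSL culture. It was 72.2 in WT B cells, 70.7 in the WT CMP and 60.4 in WT T-ALL. The 172 lower probes ran the other way, with 65.6 (quartiles 41.2 and 83.2) in the KSL culture, 77.8 in B cells, 68.0 in the CMP and 76.5 in T-ALL. All compared probes had medians of 56.6 to 57.2 on the 5 arrays. The correction keeps dim probes off both lists, so their medians are to be read against each other and not against all compared probes. Of the higher probes, 508 (50.1%) ranked highest in the KSL culture among the WT cells of the 4 other arrays. For the lower probes this was 19 of 172 (11.0%), and for all compared probes 16.5%. The last share includes the dim probes and is no like-for-like background either. Among the 199 probes at least 4-fold higher, 131 (65.8%) ranked highest in the KSL culture. With each alternative processing the KSL median of the higher list stayed above that of the lower list, while the order in T-ALL turned with the local background subtracted (50.2 against 45.2) and with the blank mean subtracted (37.1 against 32.9).

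**Figure D4:**
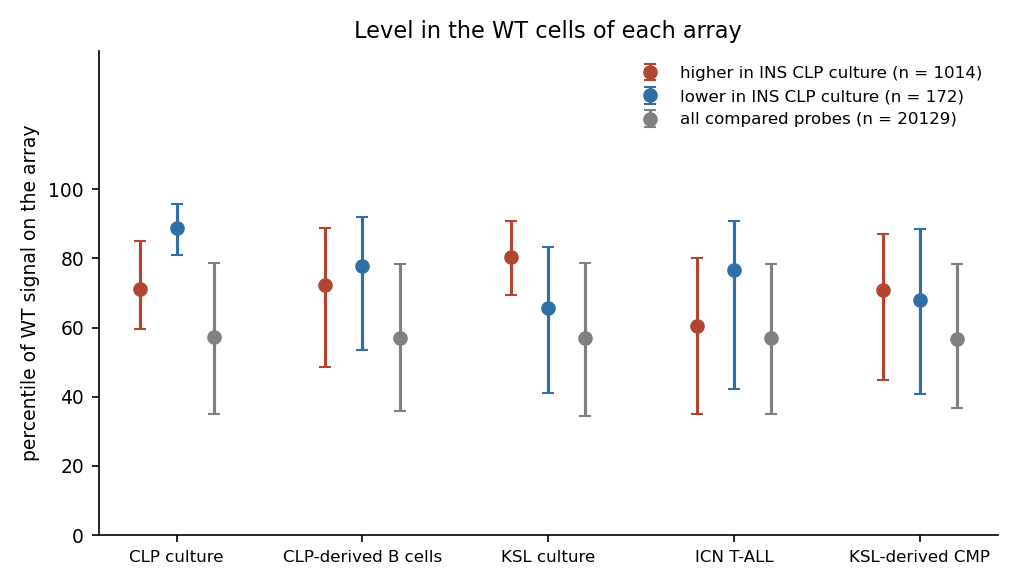
Points are the median, and bars the quartiles, of the percentile of the WT signal on each of the 5 arrays, for probes higher in the INS CLP culture (red), lower there (blue) and all compared probes (grey); the CLP percentiles entered the choice of the lists, those of the other arrays did not. In the KSL culture the red point (80.5) lies above the blue one (65.6), and in T-ALL the blue one (76.5) above the red one (60.4).

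The ratios of the same probes on the other arrays, which had no part in choosing them, differed by setting. All arrays share the dye order. In a direction shared between arrays, a dye effect and an effect of INS therefore cannot be told apart either. The shares of all probes compared on both arrays, here and below, include dim probes that can hardly reach 2-fold. They are no like-for-like background. In the CLP-derived B cells 971 of the 1015 higher probes were compared. Of these 217 (22.3%) were at least 2-fold lower in INS there, against 4.06% of all probes compared on both arrays. Another 50 (5.15%) were higher, against 5.03% of all. The median log2 ratio of the 971 in the B cells was -0.22. Of the 971, 310 (31.9%) were above 0, against 50.7% of all. Of the 172 lower probes, all compared there, 74 (43.0%) were higher in INS B cells and 11 (6.40%) lower, with a median of 0.70. Across the alternatives the 217 became 135 to 693 and the 74 became 62 to 455, with lists of other lengths. The 217 probes were 27.5% of all that were lower in INS B cells, and the 74 were 7.64% of all that were higher. For such shares, here and below, the higher list held 5.04% of the probes compared in the CLP culture and the lower list 0.854%. The probes at least 4-fold higher in the culture leaned further, with 60 of 186 (32.3%) lower in INS B cells. With the local background subtracted the higher list split into 25.5% lower and 16.6% higher in the B cells, against 15.5% and 15.7% of all probes. The lower list then split into 23.5% higher and 15.3% lower. With normexp and the local background the higher list split into 15.2% lower and 11.2% higher, against 3.34% and 4.42% of all probes. With median centring it split into 14.1% lower and 11.1% higher, against 2.12% and 12.8%. The share of the higher list that was also higher in the B cells thus depended on the processing.

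In the KSL culture few probes reached 2-fold at all, with 0.16% of the shared probes higher and 0.0214% lower in INS. Of the 1005 higher CLP probes compared there, 20 (1.99%) were higher in INS KSL cells and 1 was lower. These 20 were 64.5% of the 31 higher probes of that array. The number shared rested on the processing, with 62 under median centring, 93 from the authors' values, 163 after subtraction of the blank mean and 205 after that of the local background. The median log2 ratio of the higher list was 0.13, and 731 of 1005 (72.7%) were above 0, against 51.2% of all shared probes. Of 156 lower CLP probes, 0 were higher there and 3 were lower, with a median of 0.03. Those 3 were 75% of the 4 lower probes of that array.

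In T-ALL 107 of 923 higher CLP probes (11.6%) passed the 2-fold line upward in INS, against 1.83% of all shared probes. Another 7 (0.758%) were lower, against 0.575% of all. Their median was 0.21, and 692 of the 923 were above 0. The 107 made up 30.5% of the higher probes of the T-ALL array, and the number ran from 102 to 525 across the alternatives. Of 158 lower CLP probes, 12 (7.59%) were higher in INS T-ALL and 13 (8.23%) lower, with a median of -0.05. Of all shared probes 1.83% were higher and 0.575% lower.

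In the CMP 44 of 882 higher CLP probes (4.99%) were higher in INS and 49 (5.56%) lower, against 3.12% and 3.21% of all shared probes, with a median of -0.07. Of 147 lower CLP probes, 5 (3.40%) were higher and 15 (10.2%) lower there, with a median of -0.05. The CMP array was dimmer than the others, with 58.2% of its probes detected in INS.

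**Figure D5:**
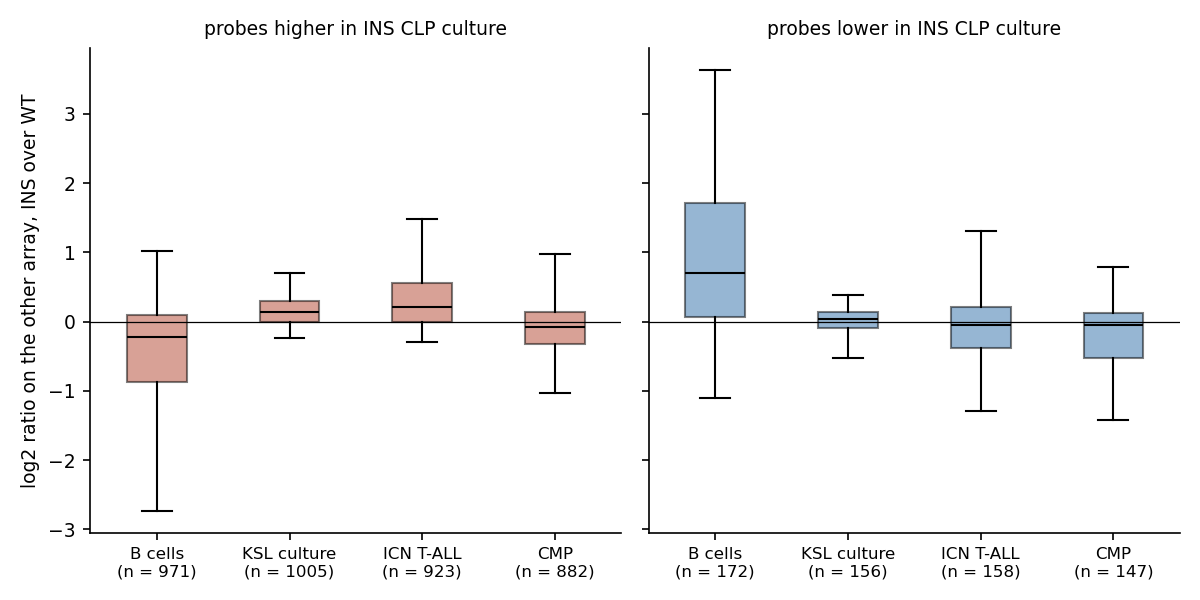
Boxes give the quartiles and median, and whiskers the fifth to the 95th percentile, of the log2 ratio of INS over WT on each other array, for probes higher (left) or lower (right) in the INS CLP culture. The B cells show medians of opposite sign to the CLP culture, at -0.22 for the higher and 0.70 for the lower probes; the other medians lie between -0.07 and 0.21.

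Most of the CLP differences did not recur at 2-fold in the same direction: 822 of the 1015 higher and 137 of the 172 lower probes did so on no other array. Of the higher probes, 618 (60.9%) were less than 2-fold apart or not compared on each of the other 4 arrays. Another 169 were higher in INS on 1 other array, 24 on at least 2 and 4 on at least 3. Of the 172 lower probes, 68 (39.5%) were apart on no other array, 31 were lower on 1 and 4 on at least 2. The opposite direction on at least 1 other array was found for 251 (24.7%) of the higher and 81 (47.1%) of the lower probes. The same direction on at least 1 other array was found for 193 (19.0%) of the higher and 35 (20.3%) of the lower probes. Of all compared probes, 8.53% were higher on at least 1 other array and 6.53% were lower on at least 1. Of these 20145 probes in total, 85.8% were apart on none. That total includes the dim probes that can hardly reach 2-fold, so it is no like-for-like background. Because the spread between samples was measured on no array and probes near the line can fall to either side, a probe that is 2-fold apart here and not elsewhere is not shown to be particular to the CLP culture.

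The authors' deposited table gave the same direction at 2-fold for most of the 2-fold probes. It held values for 1014 of the 1015 higher probes, of which 978 were at least 2-fold higher and 0 at least 2-fold lower. It held 170 of the 172 lower probes, all at least 2-fold lower. Across 19061 probes with both values, Pearson's r between the log2 ratios was 0.865 and Spearman's rho 0.909, as a description of 1 set of intensities processed in different ways. At 2-fold the authors' deposited values put 2180 probes higher and 695 lower, so the lists above are the shorter ones.

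The local background moved with the signal of the spots. The median signal of higher probes was 1.80 times its local background in INS and 1.69 times in WT, and that of lower probes 1.72 and 2.33 times. The signal was at or below its own local background in at least 1 channel for 17 of the higher and 4 of the lower probes, and for 1772 (8.80%) of all compared probes. When the local background entered the correction, 62.6% of the 1015 higher probes stayed at least 2-fold higher. Of the 172 lower ones, 102 stayed lower. The sign turned for 1 higher and 7 lower probes, and 2 of these 7 became at least 2-fold higher. When the local background was subtracted outright, 925 of 998 higher probes and 151 of 168 lower ones with a value stayed so. The sign then turned for 1 higher and 4 lower probes, and 2 of these 4 became at least 2-fold higher.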

How the data were processed

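RNA from WT and INS cells was amplified as amino allyl aRNA and labelled with Cy5 and Cy3, per the labels' protocols. The scanner files deposited by the authors hold a linear intensity per spot at 635 nm (Cy5, WT) and 532 nm (Cy3, INS), with the local background apart. Per the file headers the ratio runs 532 over 635, and normalization and background subtraction are empty. The authors' deposited table holds log2 ratios centred near 0, and the sources used here do not give its background correction.

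Foreground medians were corrected by normexp (limma 3.58.1, R 4.3.3; offset 50), without the local background, and normalized within each array by loess (span 0.3, control spots at weight 0). Flagged spots (8 on the CLP array) were left out, and the 1 probe spotted more than once was averaged. Blank limits trimmed 5% at each end. The main correction and loess were tested on a simulated array with as many bright probes raised as lowered. The alternatives, and changes mostly in 1 direction as measured here, were not simulated. With 1 array there is no test, and a 2-fold line was used. The rule for named probes took the 12 highest and 12 lowest ratios. For want of gene names, 2 IDs each way are printed, and gene lists and cell type markers could not be used. The members, lists, rules and alternatives were chosen with earlier results of these data known.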

Additional observations from a re-analysis of the deposited data

Results flagged for a closer look

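Between the B cells of CLP origin and the CLP culture, 291 probes passed the 2-fold line in opposite directions, against 61 in the same direction. Of all probes compared on both arrays, dim ones included, 5.03% were higher and 4.06% lower in INS B cells. Across the alternatives, 135 to 693 probes were higher in the culture and lower in B cells, and 62 to 455 the reverse. The same-direction share moved as well. In the main processing the higher list split into 22.3% lower and 5.15% higher in B cells. With median centring this was 14.1% and 11.1%, and with normexp and the local background 15.2% and 11.2%. The size of the contrast between opposite and same direction thus depended on the processing. The difference between these settings was not tested, since each has 1 array.

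Spots named "No probe" enter no comparison, and what they hold is not stated. They passed the detection limit of the CLP array in 16.2% of cases in INS and 39.4% in WT, above the 6.47% and 7.20% of the blank spots.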

How the results depend on the processing

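Of 10 alternatives, detection in both channels and no filter on dim probes changed only which probes were compared. They could not move the ratio of a single probe. None of the others turned the direction of the 4 probes given by ID, all of which stayed at least 2-fold apart. M200001877 ran from 16.8-fold to 26.6-fold and M200000886 from 16.9-fold to 48.3-fold. M200000431 ran from 12.7-fold to 20.8-fold and M300005701 from 8.18-fold to 11.3-fold. Counts depended on the processing. Subtraction of the local background put 2941 probes higher and 2256 lower (56.6% higher). With the blank mean subtracted these were 2604 and 1391 (65.2%), with an offset of 10 they were 1544 and 337 (82.1%), and from the authors' values 2180 and 695 (75.8%). Median centring gave 89.1% higher. Higher in the CLP culture and lower in B cells were 640 probes with the local background subtracted, 693 with the blank mean subtracted, 135 with normexp and the local background, 372 with an offset of 10 and 556 in the authors' table. Lower in the CLP culture and higher in B cells were 455, 369, 143 and 271 with the local background subtracted, the blank mean subtracted, an offset of 10 and the authors' table. Higher in both cultures were 62 probes with median centring, 205 with the local background subtracted, 163 with the blank mean subtracted, 31 with normexp and the local background, 32 with an offset of 10 and 93 in the authors' table. Higher in the CLP culture and in T-ALL were 178 with median centring, 506 with the local background subtracted, 525 with the blank mean subtracted, 218 with an offset of 10 and 409 in the authors' table. The recomputed WT percentiles were chosen after seeing the data. The median of the lower list fell to 42.2 in the KSL culture and 45.2 in T-ALL with the local background subtracted. With the blank mean subtracted it was 28.3 and 32.9, and that of the higher list in T-ALL 37.1. The cause of these moves was not tested, except that a smaller offset compresses ratios less by construction. Loess within printing blocks, foreground means, detection in both channels and no filter on dim probes moved no count by over 1.5 times. No paired analysis was possible because each comparison has 1 array. Signal over background limits what dim probes can show, and the spread between cultures was not measured.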
